A study of Homo sapiens with 6 samples.

Results

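Complex I, the NADH:ubiquinone oxidoreductase, is the entry point for electrons from NADH into the mitochondrial respiratory chain. Its matrix arm oxidizes NADH at a flavin and passes the electrons along iron-sulfur clusters to ubiquinone, and its membrane arm pumps protons across the inner membrane. The core subunits carry out these reactions and descend from the bacterial enzyme, whereas the accessory subunits surround the core and are needed for its assembly and stability. Mitochondrial DNA encodes 7 core subunits of the membrane arm, and nuclear genes encode all the others. The nuclear-encoded subunits described here were the protein-coding genes on the primary chromosomes whose symbols begin with NDUFA, NDUFB, NDUFC, NDUFS, NDUFV or NDUFAB and end in a number. This rule, which uses no measured value, found 38 genes among 67130 in the table, and assembly factors (NDUFAF genes) and read-through genes were outside it. Another 15 copies of these genes on alternative contigs were all listed at 0 and were left out.

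RNA was measured in hTERT-RPE1-TOShOFD1 cells, an immortalized human retinal pigment epithelial line that carries a doxycycline-inducible short hairpin RNA against OFD1, a centriolar satellite protein mutated in oral-facial-digital syndrome. Both groups came from this selected line. Controls (n = 3) received no doxycycline, and OFD1-depleted samples (n = 3) received doxycycline at 200 ng/mL for 72 h. No sample received doxycycline without the hairpin, so effects of doxycycline and of OFD1 loss cannot be told apart. OFD1 itself was 3.34, 3.62 and 3.44 FPKM (fragments per kilobase of transcript, scaled to the mapped fragments) in the controls and 0.795, 0.763 and 1.43 FPKM in the OFD1-depleted samples, 28.7% of the control mean. The epithelial keratins KRT8 and KRT18 and the mesenchymal genes VIM and FN1 were abundant, with control means from 116 to 4288 FPKM, whereas RPE65, RLBP1 and TYRP1 of mature pigment epithelium, together with the leukocyte gene PTPRC and the endothelial gene PECAM1, had group means of at most 0.166 FPKM. Of the other pigment epithelium genes on the list, MITF and OTX2 had control means of 5.39 and 1.66 FPKM and PMEL of 0.401 FPKM, and BEST1 was under 1 FPKM except in OFD1-depleted replicate 2 (4.33 FPKM). The labels give the tissue as retina, whereas RPE65, RLBP1 and TYRP1 were absent or near 0. The labels do not say whether replicates were separate cultures. The p-values weigh group differences against the spread between these samples, which may be technical. Read depth is unknown because the table holds FPKM alone. In bulk RNA, fewer cells expressing a gene and less RNA per cell cannot be told apart.

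One library stood apart for these genes. The summed FPKM of the 38 subunits was 2104, 2480 and 2123 in the controls and 2262, 3298 and 2156 in the OFD1-depleted samples, so OFD1-depleted replicate 2 lay far above its group and control replicate 2 was the highest control. Log2 fold changes among the 38 that this library moved are also given without it.

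Expression of the subunits in control cells ranged 27.5-fold, from 5.81 ± 0.413 FPKM for NDUFV3 to 160.0 ± 29.4 FPKM for NDUFA11 (SD, n = 3), with a median of 46.9 FPKM. The highest were NDUFA11, NDUFB8 (153 ± 19.5 FPKM), NDUFA13 (138 ± 14.8 FPKM), NDUFS5 (125 ± 24.3 FPKM) and NDUFS8 (121 ± 8.47 FPKM), and these neighbors in the order lay within each other's spread. The lowest were NDUFA5 (10.7 ± 0.485 FPKM), NDUFB5 (10.3 ± 0.536 FPKM), NDUFS1 (9.18 ± 0.652 FPKM), NDUFA9 (7.41 ± 0.316 FPKM) and NDUFV3. All 38 passed the filter of a mean of 1 FPKM, so every member was tested. The assembled complex holds most of these proteins in equal numbers, whereas their transcript levels per length were unequal. FPKM divides by length, and the 6 subunits with annotated mRNAs over 4000 bases had the 6 lowest control means. They were NDUFA10 (18.7 ± 0.583 FPKM) and the lowest ones named above. How far annotated length shapes this order was not tested.

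**Figure D1:**
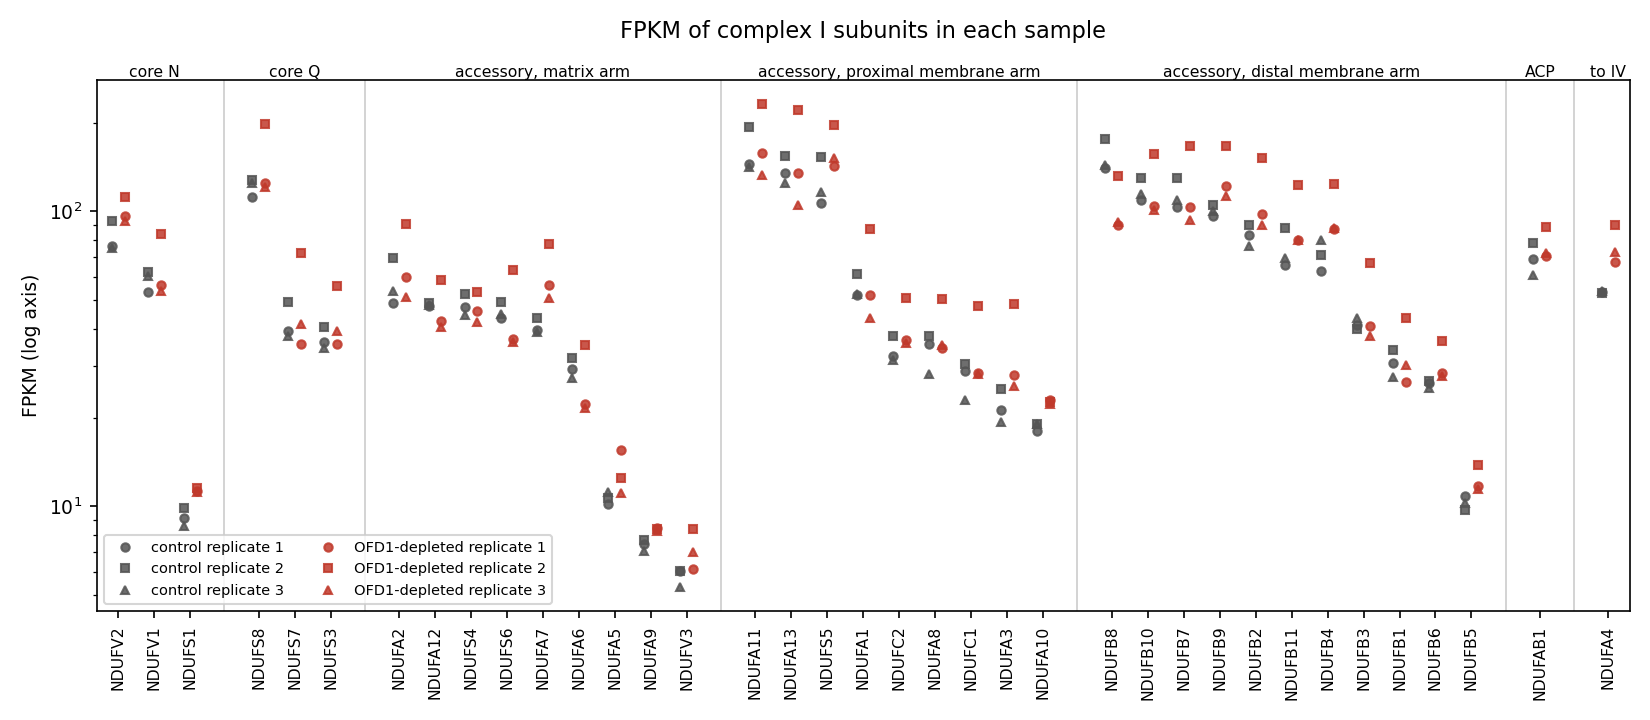
FPKM of 37 of the 38 complex I subunits on a log axis, with gray symbols for the 3 control samples and red symbols for the 3 OFD1-depleted samples, grouped by place in the complex (N, NADH-oxidizing module; Q, quinone-reducing module; ACP, acyl carrier protein; to IV, assigned to complex IV). Levels run from about the 5.81 FPKM of NDUFV3 to the 160.0 FPKM of NDUFA11 in control, and OFD1-depleted replicate 2 (red squares) is the highest sample for most genes.

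Few of the subunits passed the test between OFD1-depleted and control cells. With limma across 12025 genes and Benjamini-Hochberg adjustment, NDUFB8, an accessory subunit of the distal membrane arm, was lower, and NDUFA7, an accessory subunit of the matrix arm, and NDUFA4 were higher. NDUFA4 was long counted as a complex I subunit and is now assigned to complex IV (cytochrome c oxidase), so 1 true complex I subunit rose and 1 fell. In the lower direction 1 of 38 passed, beside 11.9% of all genes tested, and in the higher direction 2 of 38 passed, beside 5.07% of all genes tested. At an unadjusted p under 0.05 the number was 12, but the share of all genes at that limit was not counted, so this number has no background beside it. Over all genes 610 were higher and 1429 lower, a split that was 268 and 1988 when every sample was scaled to the same total and 1093 and 1311 after quantile normalization.

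NDUFB8 was 140.3, 175 and 143 FPKM in the controls and 90.1, 132 and 91.9 FPKM in the OFD1-depleted samples. All OFD1-depleted samples were below all controls. The means were 153 ± 19.5 and 105 ± 23.5 FPKM (SD, n = 3 each), 68.4% of control, with a log2 fold change of -0.56 ± 0.17 (SE) and a limma adjusted p of 0.0416. This is the subunit that immunoblots of respiratory complexes often use to mark complex I. Leaving out OFD1-depleted replicate 2, in which most other subunits were high, gave -0.74 (limma adjusted p = 0.0033), and leaving out both replicates 2 gave -0.64 (adjusted p = 0.0018). The call was lost without control replicate 1 (adjusted p = 0.0778), 2 (0.135) or 3 (0.0938) and without OFD1-depleted replicate 1 (0.144) or 3 (0.125), at log2 fold changes from -0.62 to -0.46.

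NDUFA7 was 39.7, 43.5 and 39.0 FPKM in the controls and 56.2, 77.4 and 51.0 FPKM in the OFD1-depleted samples. The groups did not overlap, and replicate 2 was the highest of each. The log2 fold change was 0.57 ± 0.16 (SE), or 1.51-fold, with a limma adjusted p of 0.0314. Without OFD1-depleted replicate 2 it was 0.40 (adjusted p = 0.0262), so the call did not need that library although the size did. The adjusted p was 0.103, 0.0599 and 0.118 without control replicates 1, 2 and 3, and 0.0548 without OFD1-depleted replicate 1.

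NDUFA4 was 53.3, 52.9 and 53.9 FPKM in the controls and 67.4, 90.2 and 72.9 FPKM in the OFD1-depleted samples. The controls were nearly equal, and every OFD1-depleted sample was higher. The log2 fold change was 0.51 ± 0.14 (SE), or 1.44-fold, with a limma adjusted p of 0.0254, and 0.39 (adjusted p = 0.0188) without OFD1-depleted replicate 2. The adjusted p was 0.0978, 0.0662 and 0.0865 without control replicates 1, 2 and 3, with the fold within 0.01 of the value from all samples.

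With 3 samples a group the smallest two-sided exact permutation p is 0.1, which each of these 3 genes reached, so single genes cannot pass 0.05 by that test. Groups did not overlap for 14 of the 38 subunits, 13 of them higher and 1 lower (NDUFB8), beside 36.1% of all genes tested, which is close to the share among the subunits.

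**Figure D2:**
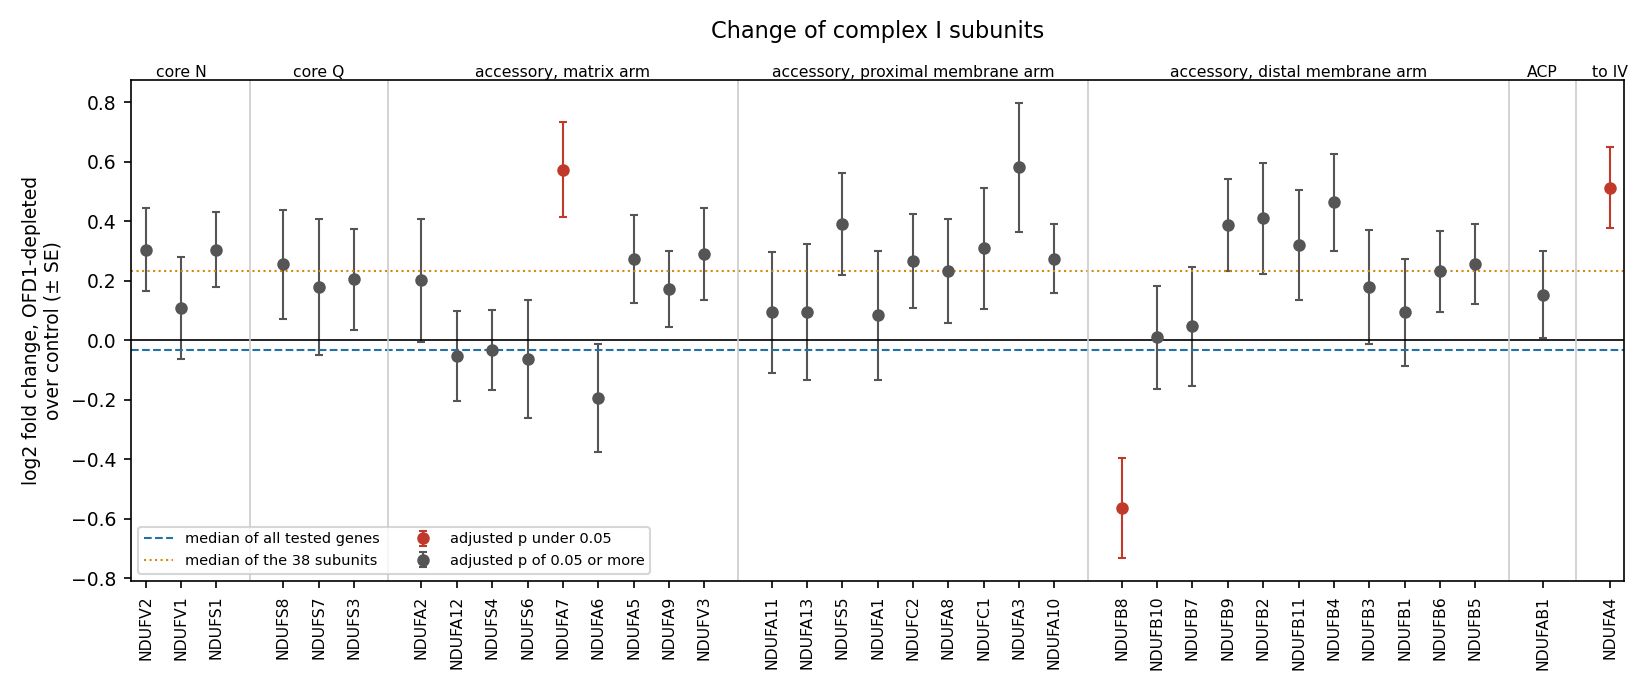
Log2 fold change of OFD1-depleted over control, with SE, for the same 37 subunits in the same order, with red points for adjusted p under 0.05 by limma. NDUFA7 (0.57) and NDUFA4 (0.51) lie high, as does NDUFA3 (0.58), which did not pass, and NDUFB8 (-0.56) lies far below the others. The median of all 38 (dotted) is 0.23 against -0.03 for all genes tested (dashed), which are not matched for mRNA length.

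The bases just before a gene's start hold many of the sites through which nuclear respiratory genes are regulated, so the promoters of the 3 genes past the test are shown. They are RefSeq sequences of GRCh38.p14, from 200 bases before to 30 bases after the start, 5′ to 3′ on the gene's strand, with matches to any of the motifs searched in capitals. NDUFB8 starts on the minus strand (chr10:100529894-100530123), NDUFA7 on the minus strand (chr19:8321346-8321575) and NDUFA4, which RefSeq names COXFA4, on the minus strand (chr7:10940124-10940353).
NDUFB8: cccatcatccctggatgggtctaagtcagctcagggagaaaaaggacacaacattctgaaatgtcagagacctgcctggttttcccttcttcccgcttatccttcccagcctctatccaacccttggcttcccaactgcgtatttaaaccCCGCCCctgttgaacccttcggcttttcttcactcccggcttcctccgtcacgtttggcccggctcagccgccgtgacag
NDUFA7: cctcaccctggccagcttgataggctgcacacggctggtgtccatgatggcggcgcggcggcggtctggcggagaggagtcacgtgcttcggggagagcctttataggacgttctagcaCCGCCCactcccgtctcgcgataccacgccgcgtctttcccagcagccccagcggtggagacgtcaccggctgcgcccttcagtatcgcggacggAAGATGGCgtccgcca
NDUFA4: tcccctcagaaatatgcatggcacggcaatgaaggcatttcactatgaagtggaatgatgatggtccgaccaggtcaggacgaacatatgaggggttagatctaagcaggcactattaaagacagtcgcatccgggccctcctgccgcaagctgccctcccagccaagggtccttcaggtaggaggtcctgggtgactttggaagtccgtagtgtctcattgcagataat

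Motifs were searched on both strands as exact letters. GGGCGG, the core of SP1 sites, was in the NDUFB8 promoter at bases -50 to -45 and in the NDUFA7 promoter at bases -81 to -76, both on the opposite strand, and AAGATGGC, a YY1 core, was in the NDUFA7 promoter at bases 15 to 22 after the start. The NDUFA4 window held none of the motifs. Among the 33 members with a RefSeq promoter, 21 held GGGCGG (63.6%, beside 41.7% of 35116 promoters), 6 held GCATGCGC of NRF1 (18.2%, beside 2.79%), 5 held CCGGAAG of ETS factors such as GABPA (15.2%, beside 9.15%) and 5 held AAGATGGC (15.2%, beside 2.18%). TCAAGGTCA of the estrogen-related receptors was in 0 of the 33, beside 0.276%. The 6 with the NRF1 letters were NDUFA5, NDUFA6, NDUFA8, NDUFB4, NDUFS6 and NDUFS7, and their median log2 fold change was 0.21, beside 0.20 for the 27 members without it. A match describes letters and is not a measured binding site.

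The core subunits of the NADH-oxidizing module had log2 fold changes above 0 with none past the test. NDUFS1, the largest core subunit, which carries several iron-sulfur clusters, was 9.12, 9.86 and 8.56 FPKM in the controls and 11.3, 11.5 and 11.2 FPKM in the OFD1-depleted samples. These groups did not overlap, and the log2 fold change was 0.30 ± 0.13 (SE; limma adjusted p = 0.129). NDUFV2, an iron-sulfur subunit, was 76.1, 92.8 and 74.9 FPKM in the controls and 96.4, 112 and 92.4 FPKM in the OFD1-depleted samples. Its highest control lay above its lowest OFD1-depleted sample, at a log2 fold change of 0.30 ± 0.14 (adjusted p = 0.163). NDUFV2 was at 0.22 without OFD1-depleted replicate 2. NDUFV1, which binds the flavin and NADH, was 53.2, 62.4 and 60.6 FPKM in the controls and 56.2, 83.6 and 53.6 FPKM in the OFD1-depleted samples. Only replicate 2 lay outside the control range, and the log2 fold change was 0.11 ± 0.17 (adjusted p = 0.718), which was -0.04 when every sample was scaled to the same total and -0.09 without OFD1-depleted replicate 2.

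In the quinone-reducing module the core subunits NDUFS7, NDUFS8 and NDUFS3 had log2 fold changes above 0, and none passed the test. NDUFS7, which holds the last cluster of the chain, was 39.2, 49.2 and 37.9 FPKM in the controls and 35.4, 72.2 and 41.6 FPKM in the OFD1-depleted samples. NDUFS8, another iron-sulfur subunit, was 112, 127 and 124 FPKM in the controls and 125, 198 and 121 FPKM in the OFD1-depleted samples. NDUFS3 was 36.2, 40.7 and 34.5 FPKM in the controls and 35.5, 55.9 and 39.2 FPKM in the OFD1-depleted samples. In these 3 genes replicate 2 alone was clearly above the controls, and the log2 fold changes were 0.18 ± 0.23, 0.25 ± 0.18 and 0.20 ± 0.17 (SE; limma adjusted p = 0.645, 0.388 and 0.458). Without that library they were -0.12, 0.02 and 0.01. The NDUFS3 span also holds PTPMT1 on the same strand, at 13.8 to 20.9 FPKM, so its value is uncertain.

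Accessory subunits of the matrix arm were divided in sign, with 5 of 9 log2 fold changes above 0 and a range from -0.19 to 0.57, and 4 of 9 above 0 without OFD1-depleted replicate 2. NDUFA6, which anchors an acyl carrier protein, was 29.2, 31.8 and 27.2 FPKM in the controls and 22.1, 35.2 and 21.6 FPKM in the OFD1-depleted samples. Replicates 1 and 3 lay below all controls and replicate 2 above them, so the log2 fold change was -0.19 ± 0.18 (SE; limma adjusted p = 0.517), and -0.42 (adjusted p = 0.0223) without OFD1-depleted replicate 2. NDUFS6, a zinc-binding subunit, was 43.4, 49.2 and 44.9 FPKM in the controls and 36.8, 63.4 and 35.9 FPKM in the OFD1-depleted samples, with the same arrangement. Its log2 fold change was -0.06 ± 0.20 (adjusted p = 0.862), -0.33 (adjusted p = 0.0462) without OFD1-depleted replicate 2, and 0.06 or 0.08 without OFD1-depleted replicate 1 or 3. NDUFA12 (48.3 ± 0.579 to 47.2 ± 9.76 FPKM, log2 fold change -0.05) and NDUFS4 (48.1 ± 3.95 to 47.1 ± 5.69 FPKM, -0.03) were also below 0, at -0.22 and -0.12 without OFD1-depleted replicate 2. Those above 0 beside NDUFA7 were NDUFV3 (5.81 ± 0.413 to 7.17 ± 1.12 FPKM, log2 fold change 0.29), NDUFA5 (10.7 ± 0.485 to 13.0 ± 2.26 FPKM, 0.27), NDUFA2 (57.5 ± 10.8 to 67.3 ± 20.9 FPKM, 0.20) and NDUFA9 (7.41 ± 0.316 to 8.36 ± 0.0764 FPKM, 0.17). Without that library they were 0.17, 0.30, -0.04 and 0.17.

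All 9 accessory subunits at the proximal membrane arm had log2 fold changes above 0, 6 of 9 without OFD1-depleted replicate 2, and none passed. NDUFA3, a small membrane subunit with the largest log2 fold change of the 38, was 21.2, 25.0 and 19.4 FPKM in the controls and 27.8, 48.3 and 25.6 FPKM in the OFD1-depleted samples. The groups were apart by a narrow margin, with a log2 fold change of 0.58 ± 0.22 (SE; limma adjusted p = 0.0918) that was 0.30 (adjusted p = 0.127) without OFD1-depleted replicate 2. NDUFS5 (125 ± 24.3 to 164 ± 29.0 FPKM, log2 fold change 0.39), NDUFC1 (27.3 ± 3.90 to 34.7 ± 11.2 FPKM, 0.31), NDUFA10 (18.7 ± 0.583 to 22.6 ± 0.303 FPKM, 0.27), NDUFC2 (33.8 ± 3.51 to 41.1 ± 8.38 FPKM, 0.27) and NDUFA8 (33.7 ± 5.10 to 40.0 ± 9.05 FPKM, 0.23) followed. Without OFD1-depleted replicate 2 NDUFS5 was 0.25, NDUFC1 0.06, NDUFA10 0.28, NDUFC2 0.10 and NDUFA8 0.06. NDUFA13, NDUFA11 and NDUFA1 were at 0.09, 0.09 and 0.08, with group means of 138 ± 14.8 and 154 ± 60.3, 160.0 ± 29.4 and 174 ± 51.3, and 55.2 ± 5.25 and 61.1 ± 23.1 FPKM. These last 3 turned negative without OFD1-depleted replicate 2 (-0.20, -0.13 and -0.21) and when every sample was scaled to the same total (-0.05, -0.05 and -0.06).

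In the distal membrane arm NDUFB8 was lower, while the other 10 of the 11 had log2 fold changes above 0, none of them past the test. Without OFD1-depleted replicate 2, 6 of the 11 were above 0. The highest were NDUFB4 (71.5 ± 8.75 to 99.5 ± 20.8 FPKM, log2 fold change 0.46, limma adjusted p = 0.0753), NDUFB2 (83.2 ± 6.68 to 113 ± 33.5 FPKM, 0.41) and NDUFB9 (101 ± 4.53 to 134 ± 28.6 FPKM, 0.39), a subunit that holds the other acyl carrier protein. NDUFB11 (74.4 ± 11.5 to 94.1 ± 25.0 FPKM, 0.32), NDUFB5 (10.3 ± 0.536 to 12.3 ± 1.33 FPKM, 0.26), NDUFB6 (26.0 ± 0.710 to 30.8 ± 4.82 FPKM, 0.23) and NDUFB3 (41.5 ± 1.83 to 48.6 ± 15.9 FPKM, 0.18) lay between. With that library left out, the first 3 were 0.30, 0.18 and 0.22, and these 4 were 0.11, 0.17, 0.11 and -0.07. NDUFB1 (30.7 ± 3.21 to 33.4 ± 9.05 FPKM, 0.09), NDUFB7 (114 ± 13.8 to 121 ± 39.5 FPKM, 0.05) and NDUFB10 (118 ± 10.4 to 121 ± 31.0 FPKM, 0.01) were near 0, and they were -0.05, -0.10 and -0.14 when every sample was scaled to the same total, with NDUFB7 and NDUFB10 also below 0 after quantile normalization and when the total left out mitochondrial genes. With that library left out, they were -0.12, -0.21 and -0.19. NDUFAB1, the acyl carrier protein, which also serves mitochondrial fatty acid synthesis, was 69.4 ± 8.84 and 77.2 ± 10.1 FPKM, a log2 fold change of 0.15 that was 0.05 without that library.

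Across the 38 subunits, 33 log2 fold changes were above 0, beside 46.3% of all genes tested, and the median was 0.23 beside -0.03. This tilt was smaller without OFD1-depleted replicate 2. Without it 23 of 38 were above 0, beside 47.8% of all genes, and the median was 0.06. With both replicates 2 left out 25 of 38 were above 0, beside 48.8% of all genes, and the median was 0.14 beside -0.01. When every sample was scaled to the same total (TPM), 26 of 38 were above 0, beside 30.2% of all genes. The median was then 0.09 while that of all genes shifted to -0.18. Under the other scalings 31 to 34 were above 0, beside 40.0% to 55.0% of all genes. The members' median exceeded that of all genes by 0.26 both with the FPKM as given and under TPM scaling. The excess was 0.08 without OFD1-depleted replicate 2 and 0.15 with both replicates 2 left out. These comparisons with all genes were not matched for mRNA length, although fold changes of all genes went with it. With all samples, the median log2 fold change of all genes tested was 0.13 under 1000 bases and -0.12 over 4000 bases. It was 0.19 for the 26 subunits under 1000 bases and 0.27 for the 6 over 4000 bases. When a smooth trend on length was taken out of each sample, 27 of 38 were above 0, beside 55.8% of all genes. The median was then 0.20 beside 0.05, an excess of 0.14. Whether subunits differ from other genes of like length was not otherwise tested.

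The height of OFD1-depleted replicate 2 went with mRNA length. Most subunits have short mRNAs, with a median of 694 bases, beside 3040 bases for all genes tested. Over the 26 subunits with mRNAs under 1000 bases, the log2 ratio of OFD1-depleted replicate 2 to the geometric mean of replicates 1 and 3 had a median of 0.63, and all 26 were above 0. Over the 6 subunits with mRNAs over 4000 bases (NDUFA5, NDUFA9, NDUFA10, NDUFB5, NDUFS1 and NDUFV3) the median was 0.02. These 6 were also the lowest in control, so length and level cannot be told apart among the subunits. Among all genes tested the medians were 0.39 for the 1357 under 1000 bases and -0.36 for the 4320 over 4000 bases. Across the 38 subunits, which share libraries, Pearson's r between this ratio and log10 length was -0.75 and Spearman's rho was -0.62. For control replicate 2 the medians were 0.24 and 0.06 for short and long subunits. The summed FPKM of the 6 long subunits was 61.6, 63.0 and 61.4 in the controls and 75.9, 77.2 and 71.3 in the OFD1-depleted samples. In this sum replicate 2 did not stand apart and the groups did not overlap. Single genes differed: NDUFA5 overlapped (11.2 FPKM in control replicate 3, 11.1 FPKM in OFD1-depleted replicate 3). NDUFV3 was 6.15, 8.36 and 6.99 FPKM and NDUFB5 11.7, 13.9 and 11.5 FPKM in the OFD1-depleted samples, highest in replicate 2. Their log2 fold changes ran from 0.17 to 0.30, and none passed the test. When a smooth trend on length was taken out of each sample, 9 subunits passed in the higher direction and 1, NDUFB8, in the lower, beside 13.9% and 12.6% of all genes tested under that setting. What made replicate 2 differ was not tested.

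**Figure D3:**
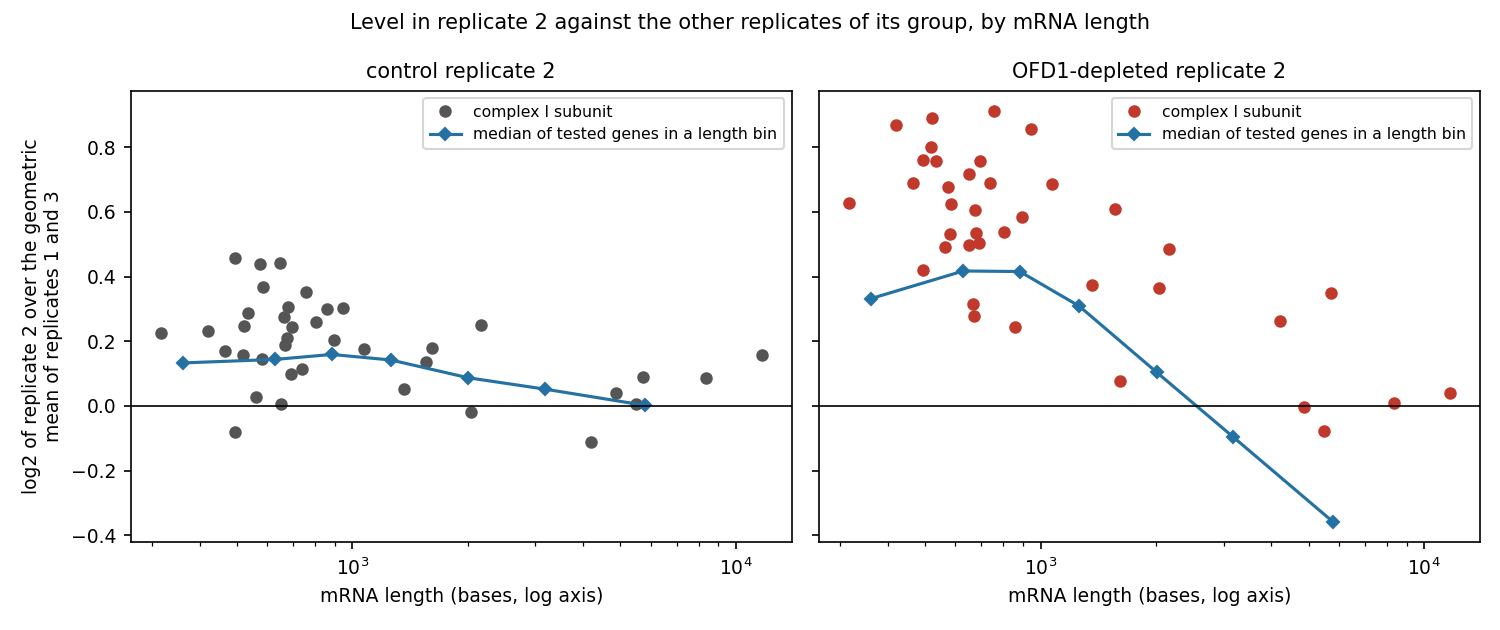
Log2 of the FPKM in replicate 2 over the geometric mean of replicates 1 and 3 of the same group, against mRNA length on a log axis, for the 38 subunits (circles) and as medians of all tested genes in length bins (blue line), in control (left) and OFD1-depleted cells (right). Short subunits sit at a median of 0.63 and long ones at 0.02 in OFD1-depleted replicate 2, beside 0.24 and 0.06 in control replicate 2.

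Shares within the complex I transcript pool do not depend on any factor that scales a whole sample. NDUFB8 made up 6.67%, 7.07% and 6.75% of the summed FPKM of the 38 subunits in the controls and 3.98%, 3.99% and 4.26% in the OFD1-depleted samples, so replicate 2 did not stand apart and the spread within groups was small. Its share was 0.598 times that of control, the lowest ratio of the 38. NDUFA6 made up 1.39%, 1.28% and 1.28% in the controls and 0.979%, 1.07% and 1.00% in the OFD1-depleted samples. NDUFA7 made up 1.88%, 1.75% and 1.83% in the controls and 2.48%, 2.35% and 2.36% in the OFD1-depleted samples. NDUFA6 was thus lower within the pool in every OFD1-depleted sample, although its FPKM overlapped, and NDUFA7 was higher. NDUFA4 made up 2.54%, 2.14% and 2.54% in the controls and 2.98%, 2.73% and 3.38% in the OFD1-depleted samples. NDUFA3 made up 1.01%, 1.01% and 0.912% in the controls and 1.23%, 1.47% and 1.19% in the OFD1-depleted samples. The shares did not overlap for 12 of 38 subunits, beside 28.4% of all genes tested when their FPKM was divided by the same sums. That is close to the share among the subunits. Lower shares were those of NDUFB8, NDUFA6, NDUFS6, NDUFA12, NDUFS4 and NDUFB10, and higher shares were those of NDUFC2, NDUFB9, NDUFB2, NDUFA4, NDUFA7 and NDUFA3. A share also drops when a subunit stays level while the others rise. The log2 fold changes of the lower ones, in that order, were -0.56, -0.19, -0.06, -0.05, -0.03 and 0.01. Of the 6 lower ones, NDUFA6, NDUFS6, NDUFA12 and NDUFS4 belong to the matrix arm and NDUFB8 and NDUFB10 to the distal membrane arm. Any tie of these shares to place in the complex was not tested.

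**Figure D4:**
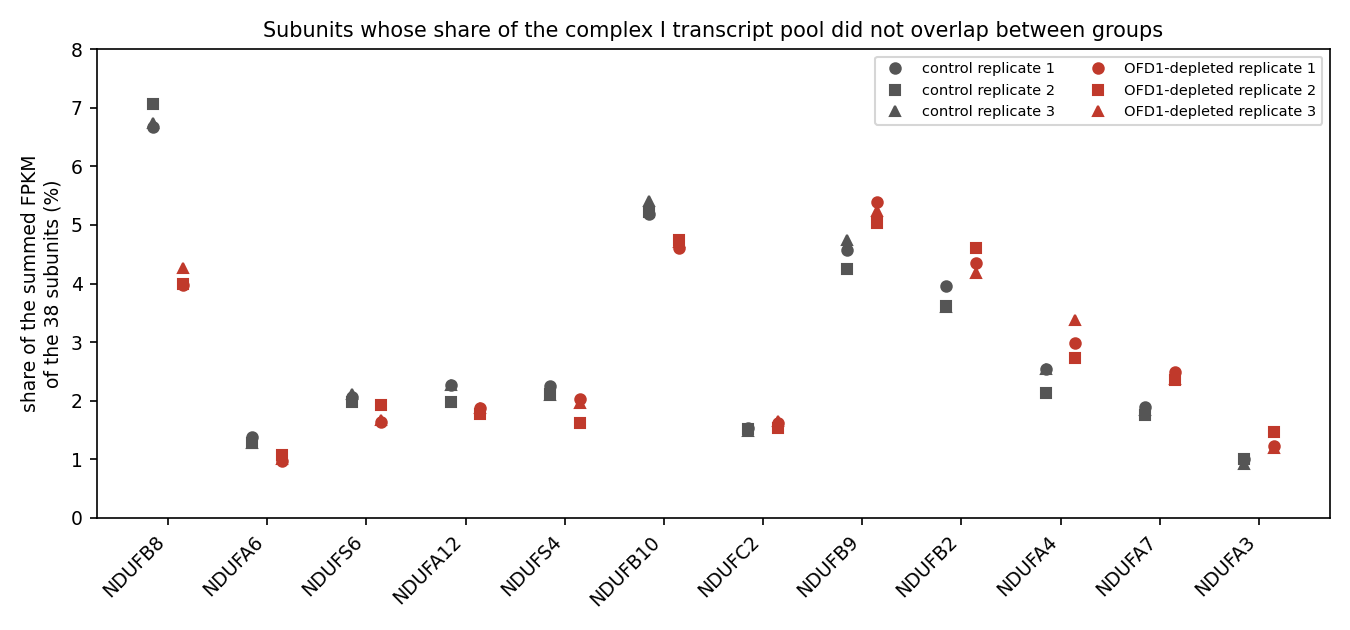
Share of the summed FPKM of the 38 subunits, in percent from 0, for the 12 subunits whose shares did not overlap between the 3 control samples (gray) and the 3 OFD1-depleted samples (red). NDUFB8 drops from between 6.67% and 7.07% to between 3.98% and 4.26%, the widest separation, and NDUFA7 lies higher in every OFD1-depleted sample.

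Overlapping genes limit some of these values, because the strand setting of the counting is not stated for the directional libraries. The table lists a gene of at least 1 FPKM in some sample within or across 14 of the 38 spans, on the same strand for 8. AL133352.1, a read-through gene on the NDUFB8 strand that covers 98.1% of its span, was listed at 0.584 FPKM in control replicate 2, next to 0 in the other controls, and at 5.58, 0 and 0.847 FPKM in the OFD1-depleted samples. FPKM divides by each gene's own length, so values of different genes cannot be summed, and its part in the NDUFB8 value was not tested. HIF1AN on the other strand crosses 14.8% of the NDUFB8 span, at 7.52 to 10.3 FPKM over all samples. Its part was not tested either. NDUFA7 lies within AC010323.1 on its strand (0.111 to 1.39 FPKM) and crosses 218 bases of RPS28, a ribosomal protein gene on the other strand that was 119 to 122 FPKM in the controls and 146 to 219 FPKM in the OFD1-depleted samples. RPS28 was therefore higher in the same samples as NDUFA7, and its part in the NDUFA7 value was not tested. No gene on the table overlapped 15 of the subunits.

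Assembly factors, which build the complex and are not part of it, included the lowest log2 fold change among subunits and assembly factors. Of the 20 on the list 1 passed higher and 2 lower, beside 5.07% and 11.9% of all genes tested. Their median log2 fold change was 0.13, and -0.01 with every sample scaled to the same total. ACAD9, an acyl-CoA dehydrogenase family member that acts with ECSIT, NDUFAF1 and TMEM126B in building the membrane arm, was 12.1, 14.4 and 13.1 FPKM in the controls and 7.18, 7.77 and 5.07 FPKM in the OFD1-depleted samples. All OFD1-depleted samples were below all controls, replicate 2 included, with a log2 fold change of -0.99 ± 0.17 (SE; limma adjusted p = 0.00245), and it passed in all 20 alternatives. NDUFAF6 was 10.0 ± 0.838 and 6.84 ± 1.02 FPKM, a log2 fold change of -0.55 ± 0.15 (adjusted p = 0.0283), and lost its call in 8 of the 20, among them each control left out and OFD1-depleted replicate 1 or 3 left out (adjusted p from 0.0643 to 0.132). TMEM126A was 21.8 ± 1.29 and 30.2 ± 3.37 FPKM, a log2 fold change of 0.46 ± 0.13 (adjusted p = 0.0319), and lost its call in 7 of the 20, among them each control and OFD1-depleted replicate 1 left out (adjusted p from 0.0632 to 0.124). NDUFAF4 (0.50), NDUFAF1 (0.43) and FOXRED1 (-0.42) came next, at adjusted p of 0.0532, 0.0582 and 0.0581. Of the partners of ACAD9, ECSIT was at -0.01 and TMEM126B at 0.22, and neither passed.

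The mitochondrially encoded subunits form the proton-pumping core of the membrane arm. All 7 had log2 fold changes above 0, from 0.59 (MT-ND4L) to 0.92 (MT-ND2), with a median of 0.77, and MT-ND2 and MT-ND3 passed (limma adjusted p = 0.0194 and 0.0140). Without OFD1-depleted replicate 2 their median was 0.65, and with both replicates 2 left out it was 0.39. Genes of the mitochondrial chromosome held 8.66% of the summed FPKM in control replicate 2, beside 13.1% and 13.8% in the other controls and 15.6% to 19.3% in the OFD1-depleted samples. MT-ND2 lost its call without OFD1-depleted replicate 3 (adjusted p = 0.0693) and after quantile normalization (log2 fold change 0.455, adjusted p = 0.171). With no filter both lost it (adjusted p = 0.288 for MT-ND2 and 0.208 for MT-ND3).

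The 38 listed subunits of complexes II to V had a median log2 fold change of 0.22, with 32 above 0. This is close to the 0.23 and 33 of the complex I subunits. By the test 2 were higher and 1 lower, beside 5.07% and 11.9% of all genes tested. SDHD of complex II (0.41) and UQCRC2 of complex III (0.48) rose, and COX7C of complex IV fell by 2.93 on the log2 scale. SDHD lost its call when any library but OFD1-depleted replicate 2 was left out (limma adjusted p from 0.0563 to 0.197), and UQCRC2 without control replicate 1 or 3 or OFD1-depleted replicate 1 (from 0.0547 to 0.0845). Without OFD1-depleted replicate 2 the median over complexes II to V was 0.03 with 21 above 0, beside 0.06 and 23 for complex I, and with every sample scaled to the same total it was 0.07 with 23 above 0. The difference between complex I and the other complexes was not tested.

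**Figure D5:**
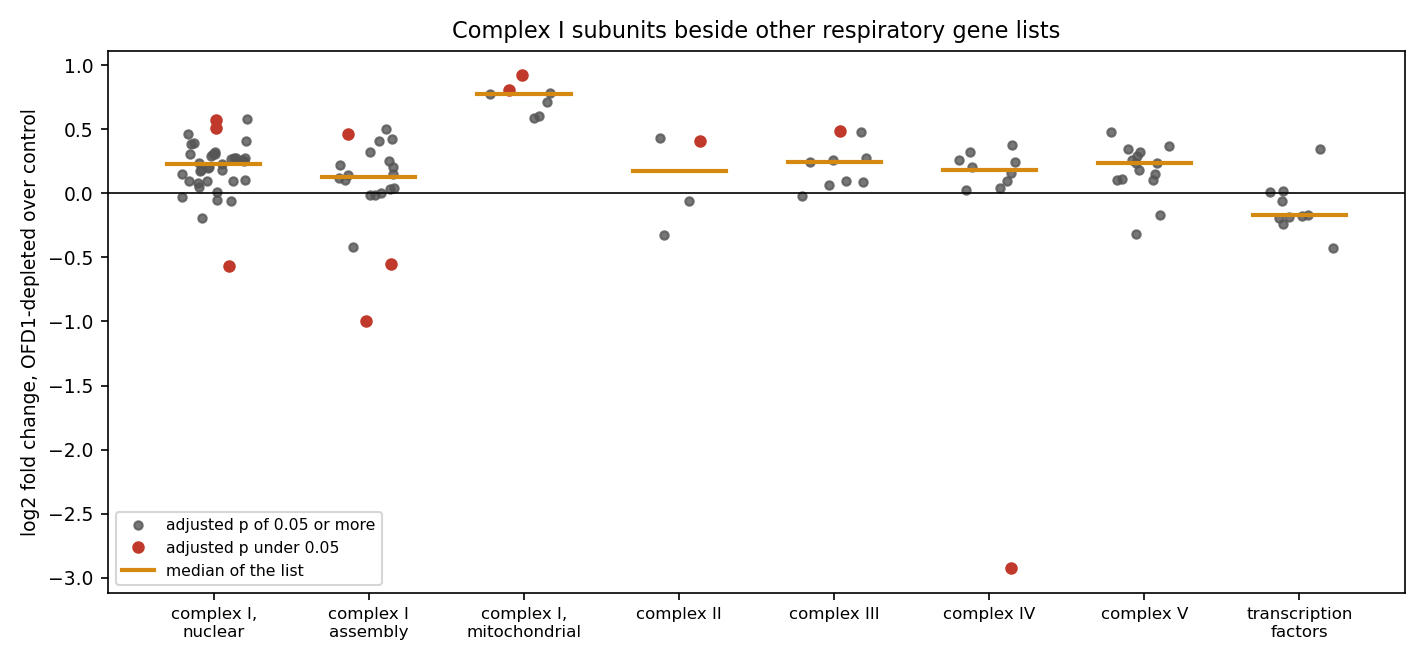
Log2 fold change of OFD1-depleted over control for each tested gene of the nuclear complex I subunits and of 7 other respiratory gene lists, with red points for limma adjusted p under 0.05 and bars for medians. Nuclear complex I subunits center on 0.23, the mitochondrially encoded ones on 0.77 and the assembly factors on 0.13, where ACAD9 at -0.99 is the lowest.

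Regulators of nuclear respiratory genes gave no call. Of 12 transcription factors and coactivators on the list 10 were tested, 3 were above 0, and the median log2 fold change was -0.17. NRF1, the factor whose letters 6 of the promoters hold, was 4.50 ± 0.706 and 3.34 ± 0.665 FPKM (log2 fold change -0.43 ± 0.19, limma adjusted p = 0.158), and GABPA was 6.65 ± 0.265 and 5.90 ± 1.02 FPKM (-0.18 ± 0.16, adjusted p = 0.476). PPARGC1A, the coactivator PGC-1α, was listed at 0 in all 6 samples.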

How the data were processed

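RNA was sequenced from 3 control and 3 OFD1-depleted samples of hTERT-RPE1-TOShOFD1 cells. Per the methods and the submitters' processing notes, directional paired-end libraries were aligned to GRCh38 (Ensembl version 94) with HISAT2 2.0.5 and summarized with StringTie (version not given in the sources used here), and the authors deposited FPKM per gene for each sample. The labels' extraction text also describes retinas and another library kit. FPKM divides by length and by mapped fragments, keeps no depth, and lets a change in abundant genes shift all others.

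Genes averaging 1 FPKM or more over the samples (12025) entered a limma fit (3.58.1, R 4.3.3) of log2(FPKM + 0.1) in which variance followed mean level, and two-sided p-values were adjusted over all of them by Benjamini-Hochberg and called below 0.05. Fold changes are on that scale, which understates those of low genes. Exact permutation tests compared single subunits. The model was tested on simulated data. Lengths came from the canonical transcripts of GENCODE 44 (12000 of the genes tested, 99.8%), promoters from RefSeq (33 of 38 subunits). Genes named in full were those past the threshold, the core subunits and the 3 largest changes in each direction; 1 subunit, kept in the counts and medians, is not reported here. The members, lists and alternatives were chosen with earlier results of these data known.

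Each choice was also varied alone: the pseudocount (1 or 0.01), the filter (none, or 5 FPKM), scaling between samples (median of ratios, TPM, quantile, or an equal total outside the mitochondrial genes), the variance model (limma without trend, or with array weights), a replicate block, the test of protein-coding genes alone and the omission of each sample. Removal of a length trend (loess, span 0.3) and leaving out both replicates 2 were added after seeing the data. The fits that leave out a sample assume that both groups share 1 variance. Python 3 scripts made the summaries.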

Additional observations from a re-analysis of the deposited data

How the results depend on the processing

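Of 760 log2 fold changes of the 38 subunits under 20 alternatives, 658 kept their direction and side of the threshold, 21 lost a call, 29 gained one and 52 changed sign. The sign held in every alternative for 25 subunits, NDUFB8, NDUFA7 and NDUFA4 among them. NDUFB8 passed in 12 of the 20, NDUFA7 in 13 and NDUFA4 in 14, with adjusted p ranging from 0.0012 to 0.182, from 0.0058 to 0.139 and from 0.005 to 0.0978. Lower and higher subunits past the threshold numbered 0 and 0 with no filter (1083 calls over all genes, 1 assembly factor) and without the trend, 2 and 10 with array weights (3956 calls, 7 assembly factors), 1 and 9 with the length trend removed (3176 calls, 7 assembly factors) and 2 and 6 with both replicates 2 left out (3290 calls, 6 assembly factors). Median-of-ratios scaling left 0 lower, TPM scaling 0 higher, and quantile normalization gave 5 higher. The replicate block gave 5 higher (NDUFB4, NDUFS5, NDUFA3, NDUFA4 and NDUFA7), 1 lower and 2296 calls over all genes. Over all genes tested, the deviations of same-numbered samples from their group means had low correlations, at 0.058, 0.048 and 0.011. For these subunits both replicates 2 were high, with median log2 ratios to the other replicates of 0.18 in control and 0.54 in OFD1-depleted cells. Whether the numbers pair the samples was not otherwise tested. Leaving out 1 sample gave 0 to 3 lower, 0 to 2 higher, 1 to 4 assembly factors and 1111 to 2818 calls over all genes.

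Signs changed in members that passed under none of the alternatives, except NDUFS6. Under median-of-ratios scaling NDUFS4 was 0.020. Under TPM scaling NDUFB7 was -0.10, NDUFA1 -0.063, NDUFB10 -0.14, NDUFV1 -0.039, NDUFA11 -0.053, NDUFB1 -0.053 and NDUFA13 -0.053. NDUFB7 and NDUFB10 were -0.0128 and -0.0494 under quantile normalization, and -0.0126 and -0.049 with the same total without mitochondrial genes. With array weights NDUFB7 was -0.075, NDUFB3 -0.021, NDUFA1 -0.095, NDUFB10 -0.087, NDUFA11 -0.0012, NDUFB1 -0.042 and NDUFA13 -0.12. With the length trend removed NDUFB7 was -0.0625, NDUFA1 -0.050, NDUFB10 -0.072, NDUFA11 -0.0064, NDUFB1 -0.069 and NDUFA13 -0.017. With both replicates 2 left out NDUFB7 was -0.11, NDUFS7 -0.0077, NDUFB3 -0.10, NDUFA1 -0.13, NDUFB10 -0.12, NDUFV1 -0.049, NDUFB1 -0.041 and NDUFA13 -0.12. With 1 sample left out NDUFA1 ranged from -0.21 to 0.29, NDUFA11 from -0.13 to 0.27, NDUFA12 from -0.22 to 0.046, NDUFA13 from -0.20 to 0.33, NDUFA2 from -0.038 to 0.37, NDUFB1 from -0.12 to 0.25, NDUFB10 from -0.19 to 0.12, NDUFB3 from -0.074 to 0.33, NDUFB7 from -0.21 to 0.21, NDUFS4 from -0.12 to 0.044, NDUFS6 from -0.33 to 0.079, NDUFS7 from -0.12 to 0.39 and NDUFV1 from -0.095 to 0.23. The cause of these changes was not tested. With 3 samples a group, most subunit changes of the size seen here could not be told from the spread between samples.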

Other observations

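NDUFC2-KCTD14, a read-through gene that spans NDUFC2 and was outside the rule, was listed at 0 in control replicates 1 and 2 and at 0.827 FPKM in control replicate 3, and at 2.92, 1.69 and 0.790 FPKM in the OFD1-depleted samples. It passed the test (log2 fold change 3.01, limma adjusted p = 0.0276) although its groups overlapped, and with 2 controls at 0 the size of that fold depends on the pseudocount. Fragments of NDUFC2 (33.8 ± 3.51 and 41.1 ± 8.38 FPKM, SD, n = 3 each) can be assigned to either gene. NDUFA4L2, a paralog of NDUFA4, was below the filter at 0.176 ± 0.102 and 0.714 ± 0.453 FPKM (SD, n = 3 each).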
